A study of Mus musculus with 4 samples.

Results

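The NADPH oxidase of phagocytes is an enzyme complex that makes superoxide, and 5 genes of its subunits were followed here, Ncf1, Ncf4, Cyba, Cybb and Rac2, each matched by its gene symbol among the 55401 genes of the count table. They were chosen by the measured difference in RNA between the vectors, above all that of Ncf1, so their own values for that contrast are a description with no test. The cells were P14 CD8+ T cells of the mouse, whose transgenic T cell receptor recognises lymphocytic choriomeningitis virus. They carried a vector (pMIA in the labels) for overexpression of Hic1, a transcriptional repressor with zinc fingers, or the same vector left empty, and were sorted from spleens of mice infected with the Armstrong strain of that virus. The groups were Hic1 vector replicates 1 and 2 and empty vector replicates 1 and 2, with the same infection and receptor transgene in both. The time after infection is day 32 by the sample labels but day 7 by the text on the series. The labels do not say which animals gave the replicates, and no source used here gives strain, sex or age, so p-values below measure the spread between these samples.

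The phagocyte oxidase has a membrane part and a cytosolic part that meet when the cell is activated. Cyba (p22phox) and Cybb (gp91phox, or NOX2) form the membrane part, in which Cybb carries the electrons. Ncf1 (p47phox) and Ncf4 (p40phox) belong to the part that comes from the cytosol, and a Rac GTPase, Rac2 in blood cells, completes the active enzyme. The complex is best known from neutrophils and macrophages, and p22phox and Rac2 also serve other partners. T cell receptor signalling has been reported to draw on oxidase-derived oxidants as well.

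Libraries held 7501285 and 8839317 counts for the Hic1 vector and 4017346 and 3941364 for the empty vector, so depth differed with the group. CPM are counts scaled by library size and the TMM factors of edgeR, and TPM divide by exon length, so only TPM are compared between genes. Hic1 itself had 314 and 161 counts in the Hic1 vector libraries and 3 and 5 in the empty vector libraries, and counts per gene do not separate vector RNA from endogenous RNA. All 10 CD8 T cell markers examined, such as Cd3e and Cd8a, had counts in every library, with a summed level of 8419 and 9553 CPM with the Hic1 vector and 7302 and 7914 CPM with the empty vector. The replicates numbered 1 had Xist RNA (505 CPM with the Hic1 vector and 458 CPM with the empty vector) and no counts of the Y-linked gene Eif2s3y, and those numbered 2 had Eif2s3y (108 and 98.9 CPM) with 3 and 0 counts of Xist. Replicate number therefore coincided with the sex of the cells in both groups.

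Ncf1 was the subunit that differed most between the vectors, and it was higher with Hic1. It had 288 and 305 counts in the Hic1 vector libraries, against 20 and 34 in the empty vector libraries. Scaled to depth this was 40.5 and 34.8 CPM with the Hic1 vector, against 4.85 and 8.49 CPM with the empty vector. Both Hic1 vector libraries lay far above both empty vector libraries, and the spread within each group was small beside the gap. The means were 37.7 ± 4.10 CPM with the Hic1 vector and 6.67 ± 2.57 CPM with the empty vector (SD, n = 2 each). The log2 fold change was 2.44 ± 0.324 (SE), a 5.43-fold difference that ranked 20 from the top of 11676 tested genes. Between libraries of the same number the log2 difference (CPM plus 0.5) was 2.94 for number 1 and 1.97 for number 2. Hic1 itself stood at 44.2 CPM in Hic1 vector replicate 1 and 18.3 CPM in replicate 2. Whether the Ncf1 level goes with that of Hic1 was not tested. Without empty vector replicate 1, the library with the lower Ncf1 level of its group, the log2 fold change was 2.11 and Ncf1 was no longer called.

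Ncf1 lies on chromosome 5, positions 134220053 to 134229625, minus strand (mm10, GENCODE M21). Its 3′ end runs into Gtf2ird2 on the other strand, and 408 of its 3663 exonic bases (11.1%) are shared with exons of that gene. The sources used here do not say whether counting used strand, so reads from the shared bases cannot be assigned. Gtf2ird2 had 118 and 88 counts with the Hic1 vector and 35 and 54 with the empty vector. Scaled to depth its groups overlapped (16.6 and 10.03 CPM with the Hic1 vector, 8.50 and 13.5 CPM with the empty vector), so the Ncf1 difference was not matched in the gene that shares bases with it.

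**Figure D1:**
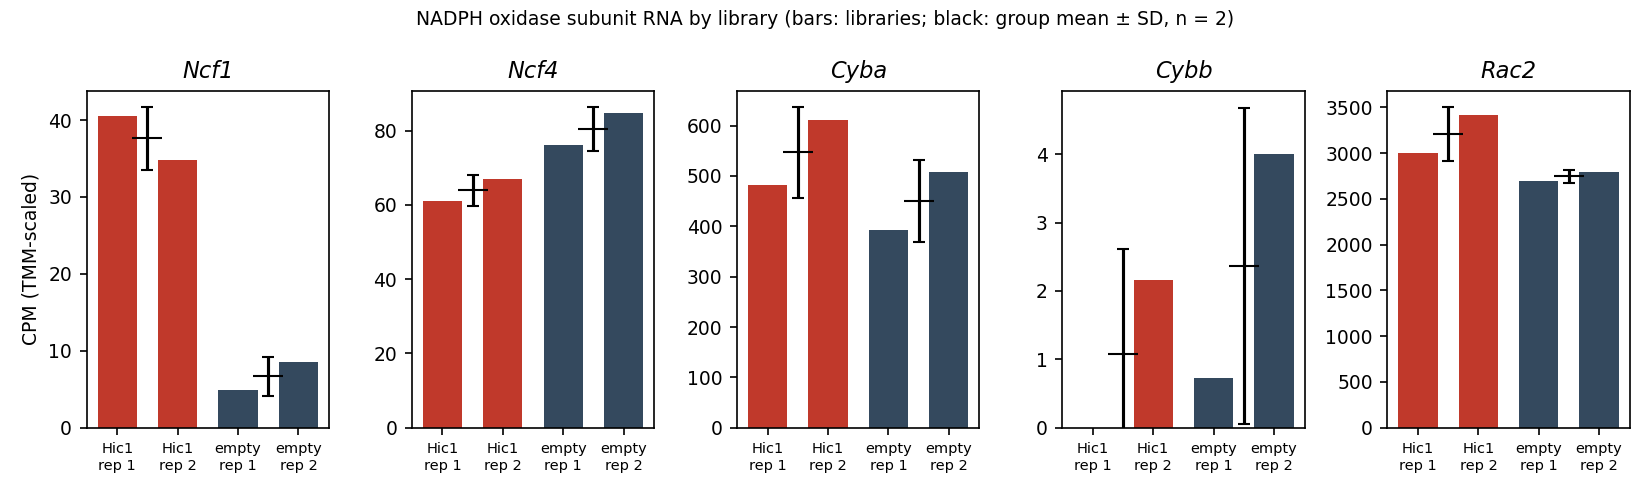
RNA of the 5 subunits in CPM (vertical axes start at 0 and differ between panels), with a bar for each library and the group mean ± SD in black (n = 2). Both Hic1 vector bars of Ncf1 (40.5 and 34.8 CPM) are above both empty vector bars (4.85 and 8.49 CPM), and Cybb differs more between replicate numbers than between vectors.

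The sequences before the transcription start of Ncf1 and of both membrane subunits are shown so that the subunit that differed can be read beside the other subunits with an entry in the RefSeq promoter table. Each run is the 250 bases upstream of the RefSeq start (GRCm38.p6), 5′ to 3′ on the gene's strand, and capitals mark GGGCA or its complement TGCCC, the central letters of the Hic1 response element. The windows are chr5:134229626-134229875 for Ncf1, chr8:122432941-122433190 for Cyba and chrX:9469325-9469574 for Cybb, all on the minus strand. The Cybb window lies inside the GENCODE span of that gene (9435252 to 9487771), so it precedes the RefSeq start but not the outermost GENCODE start. Of the 5 genes, 3 matched the RefSeq promoter table.
Ncf1: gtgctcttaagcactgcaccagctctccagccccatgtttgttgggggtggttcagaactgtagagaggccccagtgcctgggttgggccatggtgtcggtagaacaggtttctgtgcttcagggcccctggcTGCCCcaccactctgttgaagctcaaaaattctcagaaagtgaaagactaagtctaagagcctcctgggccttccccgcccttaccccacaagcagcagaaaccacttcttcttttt
Cyba: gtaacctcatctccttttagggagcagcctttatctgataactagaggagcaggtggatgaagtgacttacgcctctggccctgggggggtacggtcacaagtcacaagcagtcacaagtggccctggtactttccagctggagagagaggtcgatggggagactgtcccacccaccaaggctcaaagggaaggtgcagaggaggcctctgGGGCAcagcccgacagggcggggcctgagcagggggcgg
Cybb: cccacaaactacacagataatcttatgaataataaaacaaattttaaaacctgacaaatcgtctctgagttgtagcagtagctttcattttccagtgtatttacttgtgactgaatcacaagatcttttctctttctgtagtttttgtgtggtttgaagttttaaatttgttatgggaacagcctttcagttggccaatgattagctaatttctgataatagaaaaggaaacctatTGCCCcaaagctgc
Each window holds the letters once, starting 117 bases upstream of the start in Ncf1, 39 in Cyba and 14 in Cybb. Among 32851 promoter windows of the same length, 47.75% hold GGGCA on either strand, so its presence does not set these genes apart. The PU box GAGGAA, a site for the myeloid factor PU.1, was searched on both strands as these exact letters. It is in none of the 3 windows and is in 23.25% of all windows. Shorter or variant PU.1 sites were not searched, so their absence is not shown. GC content was 54.4% for the Ncf1 window, 60.0% for Cyba and 34.0% for Cybb. A match is only a run of letters.

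Ncf4, also a cytosolic subunit, did not share the pattern of Ncf1. The gene, on chromosome 15 (positions 78244801 to 78262580, plus strand), had 433 and 587 counts with the Hic1 vector and 314 and 339 with the empty vector. This was 61.0 and 66.9 CPM with the Hic1 vector, against 76.2 and 84.7 CPM with the empty vector. Both Hic1 vector libraries lay just below both empty vector libraries. The log2 fold change was -0.33 ± 0.172 (SE), with -0.32 and -0.34 within replicate numbers 1 and 2. The TPM of Ncf1 relative to Ncf4 was 0.367 and 0.287 in the Hic1 vector libraries, against 0.0351 and 0.0553 in the empty vector libraries, so the balance of these subunits' RNA differed in every library of one vector from every library of the other.

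The membrane subunits stood at opposite ends of the scale. Cyba, on chromosome 8 (positions 122424776 to 122432930, minus strand), had 482 and 611 CPM with the Hic1 vector, against 392.3 and 508 CPM with the empty vector. The groups overlapped, and in both the library numbered 2 was the higher one. The means were 547 ± 90.9 CPM with the Hic1 vector and 450.2 ± 82.0 CPM with the empty vector (SD, n = 2 each), and the fitted log2 fold change was 0.28 ± 0.163 (SE). Within replicate numbers 1 and 2 the log2 difference was 0.30 and 0.27. With each library corrected for GC content the Cyba value was 0.06, and the longest Cyba transcript is 59.3% GC.

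Cybb, the catalytic subunit on the X chromosome (positions 9435252 to 9487771, minus strand), was close to absent. It had 0 and 19 counts with the Hic1 vector, against 3 and 16 with the empty vector. The 0 in Hic1 vector replicate 1 allows a level of up to 0.422 CPM (3 counts, counting error only), and the other Hic1 vector library was at 2.17 CPM. The empty vector libraries were at 0.728 and 3.997 CPM. The replicates numbered 2 were thus above those numbered 1 with either vector, and the groups overlapped. Cybb passed the filter on low counts through the replicates numbered 2, and its log2 fold change of -0.88 ± 1.25 (SE) gives no direction. Without empty vector replicate 2 it was 0.45.

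Some low-count markers of monocytes and macrophages had the same split as Cybb with both vectors, and other markers of the list did not. Csf1r, the receptor for macrophage colony-stimulating factor, had 1 and 37 counts with the Hic1 vector and 7 and 21 with the empty vector. Fcgr1 had 0 and 2 counts with the Hic1 vector and 0 and 3 with the empty vector. Lyz2, the lysozyme of myeloid cells, had 0 and 13 counts with the Hic1 vector and 0 in both empty vector libraries. Lyz2 thus had the split with the Hic1 vector alone. Spi1, which encodes PU.1 and is not in this list, had 0 and 6 counts with the Hic1 vector and 0 and 1 with the empty vector. Itgam, an integrin chain of myeloid cells, was at 15.5 and 17.8 CPM with the Hic1 vector and 33.5 and 28.2 CPM with the empty vector, lower with Hic1 and without that split. Cd68, a lysosomal protein of macrophages, was at 27.6 and 26.9 CPM with the Hic1 vector and 12.6 and 26.2 CPM with the empty vector. Adgre1 (F4/80) had 0 counts in both Hic1 vector libraries and 6 and 10 with the empty vector. Of the 10 markers in this list, 5 and 8 had a count in the Hic1 vector libraries and 6 and 9 in the empty vector libraries, again more in the replicates numbered 2. Their summed level was 806 and 650 CPM with the Hic1 vector and 785 and 785 CPM with the empty vector, almost all of it Ccr2, a chemokine receptor (763 and 599 CPM with the Hic1 vector, 735 and 721 CPM with the empty vector). The 10 neutrophil markers summed to 1.13 and 1.60 CPM with the Hic1 vector and 4.61 and 2.75 CPM with the empty vector. None of the 10 was high enough to test, so the defining genes of the cell type richest in this oxidase were near 0. In these bulk samples fewer cells of a type and less RNA per cell cannot be told apart, and the part of myeloid RNA in the Cybb counts was not tested.

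**Figure D2:**
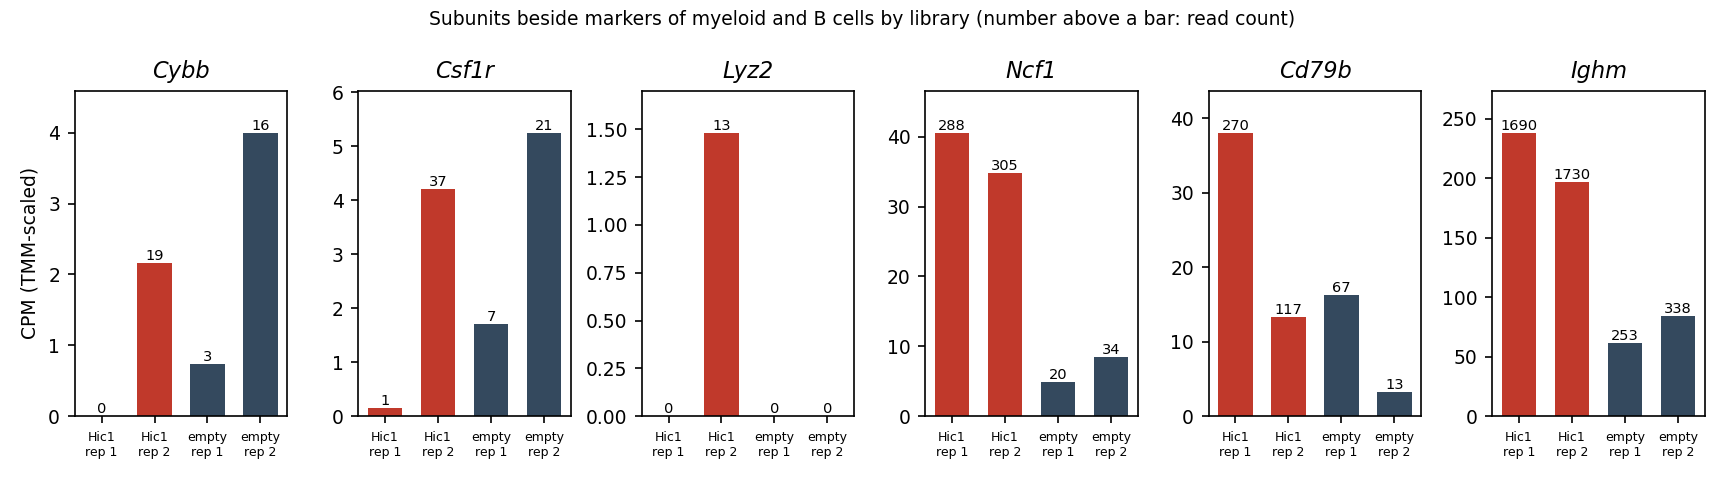
CPM by library for Cybb beside the myeloid markers Csf1r and Lyz2, and for Ncf1 beside the B cell markers Cd79b and Ighm, with the read count above each bar (vertical axes start at 0 and differ between panels). Cybb and Csf1r are higher in the replicates numbered 2 of both groups, and Ncf1 and Ighm are higher in both Hic1 vector libraries.

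B cells also use this oxidase, so their markers stand beside Ncf1. Ighm, the immunoglobulin heavy chain mu gene, had 1690 and 1730 counts with the Hic1 vector and 253 and 338 with the empty vector, and rose by 1.57 ± 0.186 on the log2 scale (SE, adjusted p = 0.00706 in the quasi-likelihood test of edgeR, Benjamini-Hochberg method, higher in both libraries). Cd79b, a signalling chain of the B cell receptor, was at 38.0 and 13.3 CPM with the Hic1 vector and 16.3 and 3.25 CPM with the empty vector, with overlapping groups. The list of 10 B cell markers summed to 280.3 and 214 CPM with the Hic1 vector and 80.6 and 92.2 CPM with the empty vector. Without Ighm the sums were 42.4 and 16.9 CPM with the Hic1 vector and 19.2 and 7.74 CPM with the empty vector. Of the defining markers, Ms4a1 (CD20) had 0 and 1 counts with the Hic1 vector and 0 and 2 with the empty vector, and Fcmr had 0 in all 4 libraries. Pax5 had 0 and 5 counts with the Hic1 vector and 2 and 1 with the empty vector. Cd79b had 270 and 117 counts with the Hic1 vector and 67 and 13 with the empty vector. Ighm was higher in the same libraries as Ncf1, and the part of B cell RNA in the Ncf1 difference was not tested.

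Rac2, the GTPase of the complex in blood cells, was the most abundant of the 5. The gene lies on chromosome 15 (positions 78559167 to 78572783, minus strand), 296587 bases beyond the end of Ncf4. It had 3000.4 and 3421 CPM with the Hic1 vector, against 2697 and 2794 CPM with the empty vector. Both Hic1 vector libraries were above both empty vector libraries by a small margin. The log2 fold change was 0.23 ± 0.112 (SE), with 0.15 and 0.29 within replicate numbers 1 and 2. After the GC trend was removed it was 0.11. Reads that fit more than 1 of the similar Rac genes were not resolved.

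Per length, the order of the subunits was the same in all 4 libraries, Rac2 first, then Cyba, Ncf4, Ncf1 and Cybb. With the Hic1 vector they averaged 2517 ± 299, 1282 ± 247, 77.0 ± 7.08, 24.9 ± 2.06 and 0.461 ± 0.652 TPM (SD, n = 2). With the empty vector the same genes averaged 2232 ± 71.8, 1094 ± 207, 100.5 ± 8.22, 4.60 ± 1.81 and 1.03 ± 1.01 TPM (SD, n = 2). No pair of neighbours in this order overlapped between libraries of a group. Rac2 and Cyba together made up most of the summed TPM of the 5 genes, with Rac2 at 65.7% and 63.6% in the Hic1 vector libraries and 67.6% and 62.8% in the empty vector libraries. Ncf1 made up 0.752% and 0.547% with the Hic1 vector and 0.103% and 0.162% with the empty vector. Even where it was higher, Ncf1 thus stayed a small part of the subunits' RNA, below Ncf4 in every library.

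**Figure D3:**
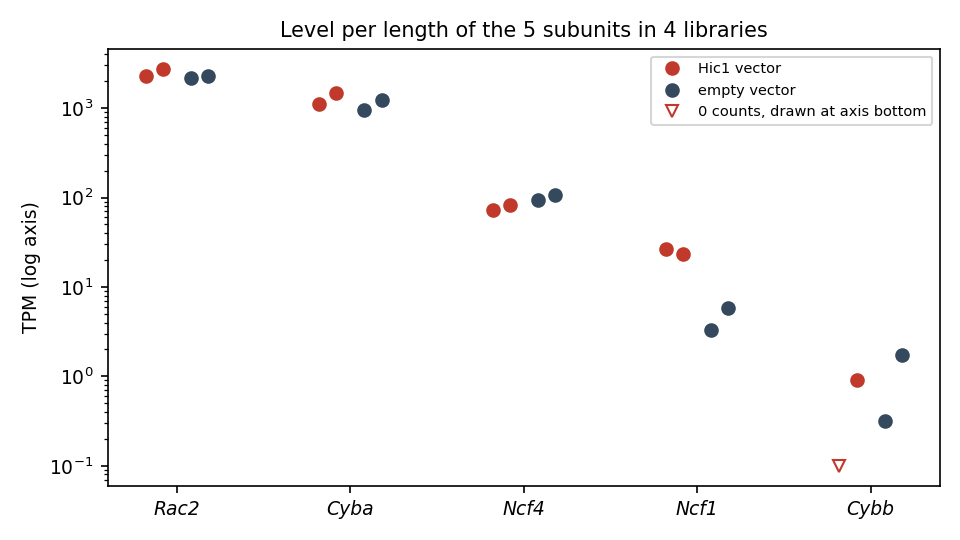
TPM of the 5 subunits on a log axis, with a point for each library. The order Rac2, Cyba, Ncf4, Ncf1, Cybb is the same in all 4 libraries, and Ncf1 alone has the Hic1 vector libraries well apart from the empty vector libraries.

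All 5 genes passed the low-count filter, and 1 of them, Ncf1, was among the genes called in the edgeR quasi-likelihood test, adjusted over all genes. Of 11676 genes tested, 1.82% were called, 0.719% higher and 1.1% lower with the Hic1 vector. Ncf1 and Rac2 had no overlap between groups with the Hic1 vector higher, which held for 26.5% of all genes, and Ncf4 had none with it lower, which held for 24.9%. Since the members were chosen with this contrast known, nothing is read from these counts. The share of calls that were higher was 39.4% with TMM scaling, 21.8% with library sizes alone, 29.1% after the GC trend was removed and 56.3% with no low-count filter. It was 47.6% with the replicate number as a block, 49.7% without Hic1 vector replicate 2 and 75% of only 8 calls without empty vector replicate 1.

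Among genes that work beside the subunits, Rap1a was lower with Hic1. Of 16 other genes of oxidase complexes and their partners, 5 were high enough to test, and 1 of these fell, none rose and 4 did not pass (median log2 fold change -0.63, against 0.01 for all genes tested). In edgeR's quasi-likelihood test 4 of the 5 had an unadjusted p below 0.05, against 2232 of all 11676 genes. Rap1a, a small GTPase found with the membrane part of the oxidase, was at 44.5 and 44.4 CPM with the Hic1 vector and 103.2 and 75.9 CPM with the empty vector. It fell by 1.01 on the log2 scale (SE 0.196, adjusted p = 0.0307 by edgeR's quasi-likelihood test, lower in both libraries). It was not called after the GC trend was removed (-0.81), nor without Hic1 vector replicate 2 (-0.998) or empty vector replicate 1 (-0.77). Its paralog Rap1b had a log2 value of -0.63 ± 0.162 and did not pass (adjusted p = 0.0709 by the same edgeR test). It was called in 5 of 14 alternatives, which were the block on replicate number (-0.62), library sizes alone (-0.70), DESeq2 (-0.64), no low-count filter (-0.56) and the omission of empty vector replicate 2 (-0.83).

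Rac1, the Rac GTPase of most tissues, was at 71.1 and 46.4 CPM with the Hic1 vector and 225.5 and 97.4 CPM with the empty vector. Its log2 value of -1.46 ± 0.461 did not pass (adjusted p = 0.198, edgeR), and it was -0.73 without empty vector replicate 1, the highest library. It was called in 4 of 14 alternatives, without empty vector replicate 2 (-1.95), with no low-count filter (-1.39), and with the replicate number as a block, alone (-1.37) or with the GC correction (-1.32). The TPM of Rac2 relative to Rac1 was 61.1 and 107 with the Hic1 vector and 17.3 and 41.5 with the empty vector. Hvcn1, the proton channel that balances the charge moved by the oxidase, was at 25.2 and 23.8 CPM with the Hic1 vector and 13.8 and 15.2 CPM with the empty vector, and its log2 value of 0.74 ± 0.279 did not pass. Cybc1, a chaperone for the Cybb and Cyba pair, was at 134 and 137 CPM with the Hic1 vector and 109 and 127 CPM with the empty vector and did not pass either. The other catalytic subunits Nox1, Nox3, Nox4, Duox1 and Duox2 had at most 4 counts in any library.

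**Figure D4:**
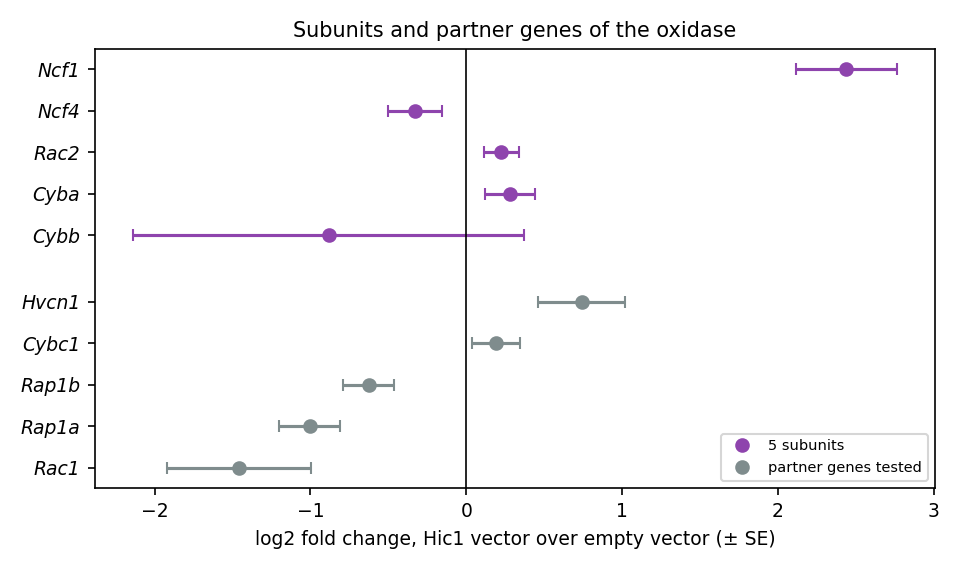
Log2 fold change, Hic1 vector over empty vector, with its SE for the 5 subunits and the 5 partner genes that could be tested. Ncf1 lies at 2.44, the other subunits lie between -0.88 and 0.28, and Rac1, Rap1a and Rap1b lie below 0.

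Genes that activate the oxidase, remove its products or supply its NADPH had few calls by edgeR's quasi-likelihood test. Over all genes, 2232 of 11676 had an unadjusted p below 0.05. Of 17 tested genes for activation (kinases, lipid enzymes and Rac regulators), none was called, 6 had an unadjusted p below 0.05, DESeq2 called 1 and limma voom called 0 (median log2 fold change -0.03), and 2 were called higher with the replicate number as a block. Akt1, a kinase that can phosphorylate p47phox, was at 46.5 and 52.8 CPM with the Hic1 vector and 20.4 and 28.7 CPM with the empty vector, with an adjusted p of 0.0571. Prkcd, another kinase of p47phox, was at 64.9 and 53.8 CPM with the Hic1 vector and 78.9 and 108.7 CPM with the empty vector and did not pass. Of 25 tested antioxidant genes, Txn2 rose, Prdx1 fell and 23 did not pass (median 0.07), and 4 of the 25 had an unadjusted p below 0.05. Txn2, mitochondrial thioredoxin, rose by 0.69 ± 0.154 on the log2 scale (adjusted p = 0.0475, higher in both libraries), and Prdx1, a peroxiredoxin that removes hydrogen peroxide, fell by 0.57 (SE 0.126, adjusted p = 0.0474, lower in both libraries). Txn2 was called in 4 of 14 alternatives and Prdx1 in 7. Both lost the call in each of the 4 omissions of a library, after the GC trend was removed, by limma voom and without robust estimation, and Txn2 lost it also with library sizes alone, with RLE scaling and without X, Y and ribosomal RNA genes.

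Of 11 tested genes that supply NADPH, none was called, 5 had an unadjusted p below 0.05, and DESeq2 and limma voom called 0 (median 0.32). With the replicate number as a block 4 of them were called higher, as were 4 with no low-count filter. Nadk, the NAD kinase, was at 170 and 165.2 CPM with the Hic1 vector and 113 and 116 CPM with the empty vector, and Pgd, an enzyme of the pentose phosphate pathway, was at 114 and 101 CPM with the Hic1 vector and 65.5 and 76.4 CPM with the empty vector. Of 6 tested transcription factors with reported roles at oxidase genes in phagocytes, none was called by edgeR, DESeq2 or limma voom, and 1 had an unadjusted p below 0.05 (median 0.34), with 1 called higher under the block. Among all 64 tested genes of these lists 1 was called higher and 2 lower.

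The tested genes with the profile over the 4 libraries most like that of Ncf1 were Dsp, Thnsl2, mt-Ta, Klra14-ps and Fgd2. Likeness was the Euclidean distance between log2 CPM profiles centred on their mean, which ran from 0.263 for Dsp to 0.469 for Fgd2. All but Klra14-ps (11.3 CPM on average) averaged below 3 CPM, so most rest on few counts. Klra14-ps, a pseudogene of the Ly49 receptor family, was at 19.1 and 20.4 CPM with the Hic1 vector and 1.70 and 3.997 CPM with the empty vector, and its near-identical relatives make its counts uncertain. For Cybb, Csf1r (distance 0.478) came after Plin4 and Gm4017 alone; it was chosen after its value was seen. Those of Cyba began with Atg13 and Map2k1 (0.0255 and 0.0295), those of Ncf4 with P2ry10b and Erp44 (0.0373 and 0.0451), and those of Rac2 with Rpl17 and Mllt1 (0.0168 and 0.0191). No gene was among the 5 most alike for more than 1 subunit.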

How the data were processed

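Polyadenylated RNA of sorted and resorted cells was made into Smart-seq2 libraries without molecular identifiers, per the labels' protocols, so counting limits cover counting error only. The deposited table holds raw read counts per gene and library, whole numbers with no scaling, made by the authors. The submitters' processing notes list the genome mm10 and, without roles, featureCounts 1.5.3, STAR 2.5.2b, DESeq2 1.3.2 and Trimmomatic 0.38; no source used here gives the annotation release or strand setting. A second deposited table, a rescaled copy, was not used.

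The 4 libraries (2 per group) were compared with edgeR 4.0.16: filterByExpr (minimum count 10, minimum total 15), TMM, quasi-likelihood F test with robust estimation on group alone, prior count 2, and Benjamini-Hochberg adjustment over all genes at 0.05. The common biological coefficient of variation was 0.195. Other versions were limma 3.58.1, DESeq2 1.42.0, R 4.3.3 and matplotlib 3.10.9. Exon lengths and GC come from GENCODE M21, which held 99.53% of the gene identifiers, and promoters from RefSeq. Alternatives were 14 changes of scaling, filter, tool, block, GC correction (loess, span 0.3), genes entered or libraries. The members and lists were chosen with earlier results of these data known. Named genes are the members, Hic1, up to 4 genes of lowest p and markers in each list, oxidase partners, neighbours, and the 5 genes of most like profile. Spi1, Xist and Eif2s3y were chosen after their values were seen. Some genes of the lists are not reported here.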

Additional observations from a re-analysis of the deposited data

How the results depend on the processing

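Ncf1 stayed above 0 in all 14 alternatives (log2 fold change 2.11 to 2.87). It was called wherever all libraries were kept, but not without empty vector replicate 1 (2.11), and the cause was not tested. Since the members were chosen by this same contrast, these calls are a description and no support for the difference. Leaving out 1 library gave Ncf1 2.11 to 2.87, Ncf4 -0.40 to -0.26, Cyba 0.11 to 0.47, Rac2 0.13 to 0.32 and Cybb -2.80 to 0.45 (the -2.80 is set by the prior count, with 1 Hic1 vector library left at 0 counts, and is no measured fold), with 0 to 1 of the subunits called. Ncf4, Cyba and Rac2 kept their direction in all 14, Cybb turned in 1 of the 13 that could hold it, without empty vector replicate 2 (0.45), and none of these 4 was called in any. Over all genes, 213 were called, against 321 with library sizes alone, 819 with no filter, 418 by DESeq2, 121 by limma voom, 140 without robust estimation, 103 after GC correction and 8 to 318 with 1 library left out, the 8 being without empty vector replicate 1. Of the pathway genes 1 was called higher and 2 lower. The higher count was 0 with library sizes alone, RLE scaling, limma voom, no robust estimation, GC correction or omission of X, Y and ribosomal RNA genes, 2 by DESeq2, 9 with no filter and 0 to 2 with 1 library left out. The lower count was 4 with no filter, 1 by limma voom or without robust estimation, 0 after GC correction and 0 to 4 with 1 library left out.

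The replicate number marks no shared animal in the labels. Over 11676 genes the difference between replicates 1 and 2 correlated between the groups (Pearson r 0.239), with the sex of the cells in common. With the replicate block 794 genes were called, and 585 with the block and GC correction. Pathway genes called were then 9 higher and 5 lower, and 5 higher and 4 lower with GC correction too. Rac1 (-1.37) and Rap1b (-0.62) were called under the block, Ncf1 stayed called (2.45), and no other subunit was called. With 0 counts in Hic1 vector replicate 1 and 3 in empty vector replicate 1, low counts limit what can be said of Cybb.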

Other observations

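Genes beside the subunits on the chromosomes were looked at as well. None of the protein-coding neighbours tested (the 2 nearest on each side, and Gtf2ird2, which overlaps Ncf1) was called by edgeR's quasi-likelihood test. In that test 4 had an unadjusted p below 0.05 (Gtf2i, Mvd, Snai3 and Cyth4, all higher with the Hic1 vector), against 2232 of all 11676 genes. The other neighbours tested, all above that limit, were Rcc1l, Castor2, Gtf2ird1, Gtf2ird2, Ift27, Zc3h18, Xk, Dynlt3 and C1qtnf6. Gm20388, whose span covers Cyba with 0 shared exonic bases, was not among the neighbours looked at. Gtf2i, a transcription factor gene 8209 bases from Ncf1, was at 324 and 462 CPM with the Hic1 vector and 241 and 297 CPM with the empty vector, a log2 fold change of 0.55 ± 0.182 (SE, adjusted p = 0.141). Rcc1l, on the other side, was at 4.36 and 3.65 CPM with the Hic1 vector and 4.37 and 5.75 CPM with the empty vector. Neither neighbour differed by as much as Ncf1. Snai3, a zinc finger repressor gene 21278 bases from Cyba, was at 58.1 and 45.9 CPM with the Hic1 vector and 36.9 and 24.7 CPM with the empty vector and did not pass (adjusted p = 0.132). Cyth4, 24264 bases from Rac2, encodes an exchange factor for ARF GTPases and was at 433 and 598 CPM with the Hic1 vector and 278 and 421 CPM with the empty vector, also without passing. Csf2rb and Csf2rb2, receptor chains that neighbour Ncf4, had at most 4 counts in any library.

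Other cell types were covered by small lists. Of 6 natural killer cell markers 5 were tested, 3 with a log2 fold change above 0 and 2 below it (median 0.09). Eomes was at 6.05 and 11.7 CPM with the Hic1 vector and 20.4 and 17.2 CPM with the empty vector. Klrb1c was at 58.6 and 70.8 CPM with the Hic1 vector and 29.4 and 43.7 CPM with the empty vector. Fcer1g and Tyrobp had overlapping groups. By edgeR only Klra8, a Ly49 receptor also found on T cells, was called. It had 78 and 48 counts with the Hic1 vector and 2 and 1 with the empty vector. The call held in 11 of 14 alternatives and was lost without Hic1 vector replicate 1, without empty vector replicate 1 and by limma voom. Of 8 dendritic cell markers 3 were tested and none was called by edgeR, DESeq2 or limma voom, with 0 at an unadjusted p below 0.05. Zbtb46, one of these, had 4 and 50 counts with the Hic1 vector and 16 and 30 with the empty vector, again more in the replicates numbered 2. Xcr1 was at 20.4 and 15.8 CPM with the Hic1 vector and 11.9 and 12.5 CPM with the empty vector. Itgax was at 619 and 518 CPM with the Hic1 vector and 477 and 499 CPM with the empty vector. Neither Xcr1 nor Itgax had that split, and both were higher in both Hic1 vector libraries. The red cell markers summed to 3.66 and 2.96 CPM with the Hic1 vector and 3.40 and 2.00 CPM with the empty vector, and Cd4 had at most 5 counts in any library.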
